A study of Homo sapiens with 2 samples.

Results

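A stretch of chromosome 14 from 29.50 to 31.50 Mb (hg19), which holds the gene PRKD1 and its upstream region, was described through the GATA2 peaks listed in it. The rule took every peak whose midpoint lay between those limits, and it found 56 peaks, 4.39% of the 1276 on chromosome 14 and part of a list of 36797. The window was selected on the number of peaks, as it holds the densest 1 Mb bin of the list away from centromeres, so the number and the spacing of its peaks are given as a description. The samples were 2 replicate ChIP-seq libraries of LNCaP, an established androgen-responsive prostate cancer cell line, made with an antibody against GATA2. Both were from cells grown with 10% serum and then held for 3 days with 5% charcoal-treated serum, a serum low in steroid hormones. No control library is among the samples. A single peak list was analysed for both replicates. It carries no value per replicate and no read counts, so the spread between replicates and the depth behind each peak are unknown and no test was made. The intervals given below are 95% intervals that cover counting over peaks only, and peaks are not replicates.

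PRKD1 encodes protein kinase D1, a serine/threonine kinase that is switched on by diacylglycerol and by protein kinase C, and that acts in transport from the Golgi, cell adhesion and motility. GATA2 is a zinc-finger transcription factor that recognises the core sequence GATA. In prostate cells it is known to bind at many enhancers that the androgen receptor also uses. Peaks of such a factor often lie in introns and between genes, and a gene can carry many of them. PRKD1 lies on the minus strand, from 30.046 to 30.397 Mb with both limits rounded to the nearest kb, so its 5′ end is at the higher position and its upstream region continues towards 31 Mb. In the RefSeq gene table for GRCh38, used here for gene order alone, the next protein-coding genes on the 5′ side are G2E3, which encodes a ubiquitin ligase, and SCFD1, which encodes a protein of vesicle transport. Between PRKD1 and G2E3 that table lists 6 long non-coding RNAs and 3 pseudogenes. The exons of these genes were not placed on hg19, so whether a peak lies in an exon or an intron was not analysed here.

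The sequence before the start of PRKD1 is shown because no peak was listed near it, as described further on. These are the 250 bases before the first of its 2 starts in RefSeq (GRCh38.p14, chr14:29927848-29928097, minus strand), written 5′ to 3′, with matches to GATA or to its reverse complement TATC in capitals. These positions belong to another build and cannot be set beside the hg19 positions of the peaks.
PRKD1 promoter: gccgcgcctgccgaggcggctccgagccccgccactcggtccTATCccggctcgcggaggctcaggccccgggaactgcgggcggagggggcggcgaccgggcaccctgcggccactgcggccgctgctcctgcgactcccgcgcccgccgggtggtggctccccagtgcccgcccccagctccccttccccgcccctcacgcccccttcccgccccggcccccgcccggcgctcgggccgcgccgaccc
It held 1 match, the reverse complement form, at 208 bases before the start. At least 1 match to GATA on either strand was present in 45.6% of the 35114 promoter sequences of this length in the table. Another 4 longer forms, each of which contains GATA, were also searched on both strands, and none was in this sequence. Of all promoter sequences, 9.17% held AGATAA on either strand, 5.66% held AGATAG, 6.66% held TGATAA and 5.05% held TGATAG. At least 1 of the 4 was held by 22.3%. The sequence was 82.8% G or C, against a median of 58.0% over all promoters, and held 36 CG pairs against a median of 11. The 250 bases before the other start of PRKD1 held no GATA on either strand.

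The 56 GATA2 peaks were gathered inside PRKD1 and just upstream of it, and thinned to the level of the rest of the chromosome on both sides. Inside PRKD1, which takes up 17.6% of the window, 23 peaks were listed, or 65.5 per Mb. Between its 5′ end and 31 Mb there were 19 peaks, or 31.5 per Mb. Beyond its 3′ end, from 29.50 Mb, there were 8 peaks, or 14.7 per Mb, and beyond 31 Mb there were 6, or 12 per Mb. The rest of chromosome 14 held 1220 peaks at 14.1 per Mb, so the density inside the gene was 4.63 times that level, the upstream part was at 2.23 times, and the outer parts were at 1.04 and 0.849 times. The window as a whole stood at 1.98 times (exact interval 1.49 to 2.59). In covered length the contrast was wider. Peaks covered 2.87% of PRKD1, 1.23% of the upstream part, 0.458% and 0.304% of the outer parts, and 0.456% of the rest of the chromosome. Of the 10077 bp covered in PRKD1, 2177 bp came from a single peak.

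**Figure D1:**
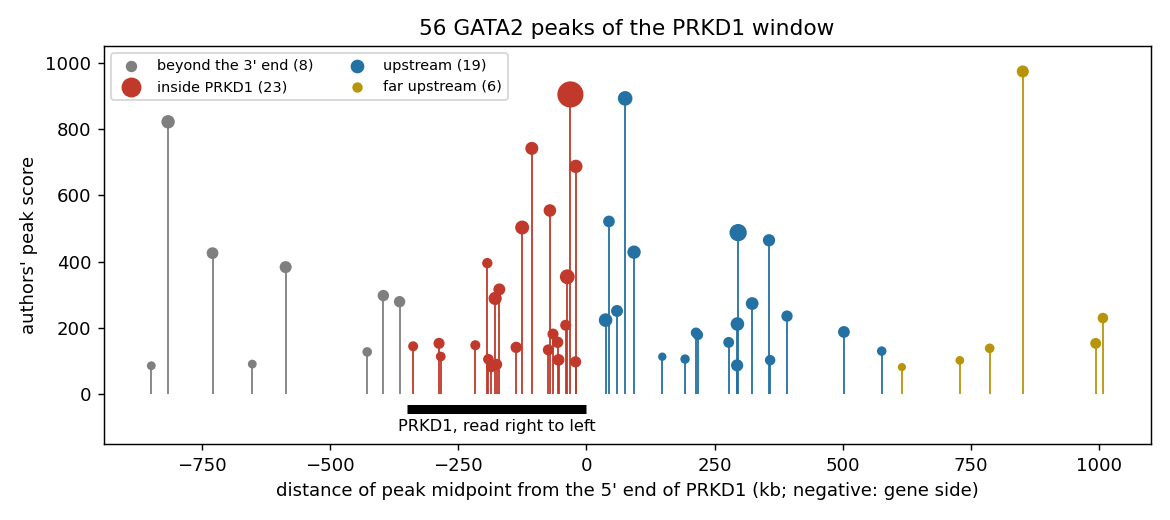
Each of the 56 peaks is drawn at the distance of its midpoint from the 5′ end of PRKD1 (kb, negative towards and past the 3′ end) with the authors' peak score as its height and its width as the area of the dot. The 23 peaks inside PRKD1 and the 19 upstream stand close together, the widest peak is inside the gene near its 5′ end, and the highest score, 973, belongs to a peak far upstream.

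The bin from 30 to 31 Mb held 44 of the 56 peaks. Over the 84 whole 1 Mb bins of chromosome 14 that do not touch the window, the count ranged from 1 to 29 with a median of 13.5, and the highest was that from 89 to 90 Mb. That contrast depended on where the bins were placed. With bins moved by 0.5 Mb, a choice made after seeing the data, the densest bin of the window (29.5 to 30.5 Mb) held 36 peaks and the densest outside it (37.5 to 38.5 Mb) held 34, with a median of 13 outside the window. Counted by 100 kb, the window held 1 to 3 peaks per step from 29.5 to 30.2 Mb. Then it held 9 and 10 in the steps from 30.2 to 30.4 Mb, the 5′ side of PRKD1, and 5 in the step that follows. A second rise, with 6 peaks from 30.6 to 30.7 Mb and 4 in the next step, lay well upstream. From 30.8 Mb on each step held 1 or 2 peaks.

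**Figure D2:**
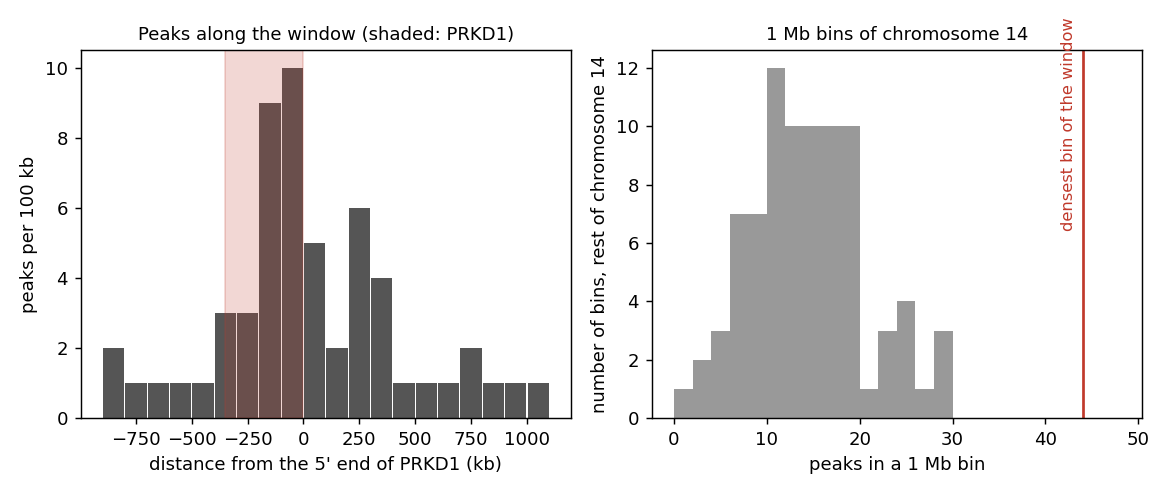
On the left, bars give the number of peaks in each 100 kb step against distance from the 5′ end of PRKD1 (kb), with the gene shaded. On the right, a histogram gives the number of peaks in the 1 Mb bins of the rest of chromosome 14, with a line at the 44 peaks of the densest bin of the window, to the right of the highest other bin at 29. With bins moved by 0.5 Mb the same counts were 36 and 34.

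At the edges of the window the peaks were sparse. The first peak inside it (29547938 to 29548118) was 181 bp wide with a score of 86.5, and the nearest peak outside (29451525 to 29451856) was 332 bp wide with a score of 179. At the other edge the last peak inside (31404676 to 31404956) scored 230 and was 281 bp wide. The next one outside (31535133 to 31535390) scored 387 and was 258 bp wide.

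Inside PRKD1 the GATA2 peaks became more frequent towards the 5′ end. With the gene divided into 4 equal parts of its 351 kb, a division chosen after the positions had been seen, the part at the 3′ end held 3 peaks, the middle parts held 5 each and the part at the 5′ end held 10. The 10 peaks at the 5′ end covered 5674 bp, or 6.47% of that part, against 0.905% of the part at the 3′ end. A single peak gave 2177 of those 5674 bp. The peaks of the part at the 3′ end scored 145, 154 and 114, all under the median of the rest of the chromosome. The 10 of the part at the 5′ end ran from 98.2 to 904 with a median of 195, so low and high scores stood side by side there.

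Of the 23 peaks in the gene, 16 lay in 3 runs, where a run is at least 5 peaks with successive midpoints no more than 12.5 kb apart. The other 33 peaks of the window were in none. These 16 are 28.6% of the window's peaks, beside 2.30% of the peaks in the rest of chromosome 14. Because closeness is what the window was chosen for, nothing is read from that difference. The rest of chromosome 14 had 4 runs, of which 2 lay in the first 2 Mb after the chromosome's first peak and had median scores of 114 and 110. The others were a run of 6 peaks at 21140211 to 21166215, whose median score was 167, and a run of 6 at 89009248 to 89029296, whose median score was 188.

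The run nearest the start of PRKD1 (30356418 to 30376624) held 5 peaks within 20.2 kb, from 20.6 to 40.4 kb inside the gene. In order from the 3′ side these scored 209, 355, 904, 98.2 and 687, and measured 310, 620, 2177, 327 and 489 bp. Its central peak (30364678 to 30366854), 31.2 kb from the 5′ end, was the widest of all 1276 peaks on chromosome 14 and the 17th widest in the list. It also had the second highest score of the window, a level reached by 5.82% of peaks in the rest of the chromosome. The last pair of this run (30375741 to 30376067 and 30376136 to 30376624) was separated by 68 bp, so the calls may be counted as 1 or as 2 sites. With peaks under 500 bp apart merged, this run fell below 5 peaks, which left 2 runs with 11 peaks in the window.

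The middle run (30322535 to 30342920) held 5 peaks within 20.4 kb and began 13.8 kb from the run nearest the start. Its scores, from the 3′ side, were 134, 554, 182, 157 and 104, so 1 peak (30325551 to 30325974, 424 bp wide) stood above the other four. The widths were alike, from 312 to 424 bp. Together the middle run and the run nearest the start held 10 peaks with midpoints inside 60 kb, with the calls of the adjoining pair counted separately. In the rest of chromosome 14 without its first 2 Mb, no stretch of 60 kb held more than 8, and the stretch with 8 (88988150 to 89042789) had a median score of 271 against 195 here. In those first 2 Mb, a stretch (19000748 to 19051264) held 12 peaks, with a median score of 108. The length of 60 kb was not among the planned settings, and it is long enough to hold both runs. Because closeness is what the window was chosen for, nothing is read from these counts.

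The run farthest from the start (30203514 to 30227309) held 6 peaks within 23.8 kb, between 170 and 193 kb into the gene. From the 3′ side the scores were 396, 106, 82.8, 289, 90.4 and 317, so 3 peaks scored 289 or more and 3 scored 106 or less. The widths were 268, 286, 286, 478, 327 and 377 bp. The highest-scoring peak of this run (30203514 to 30203781) was the narrowest of the 6.

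**Figure D3:**
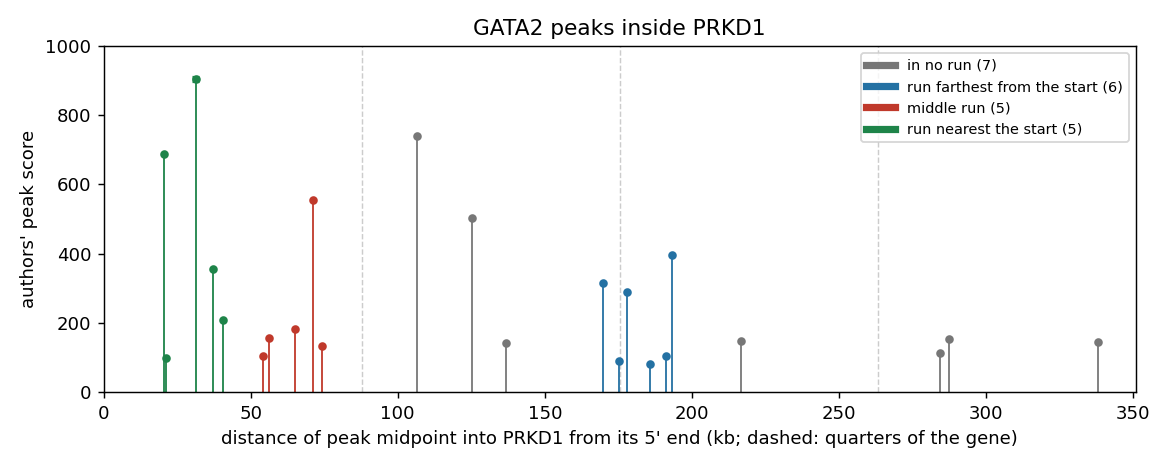
Peaks inside PRKD1 are drawn at the distance of their midpoint from the 5′ end (kb) with the authors' score as height, coloured by run, with dashed lines that divide the gene into 4 equal parts. Of the 23 peaks, 10 fall between the start and the nearest dashed line, in 2 runs of 5, and 3 fall in the part at the 3′ end.

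The 7 peaks of PRKD1 outside the runs included a pair with scores above 500. The peak at 30290263 to 30290724, 107 kb into the gene, scored 741 and was 462 bp wide, and that at 30271371 to 30271913, 125 kb into the gene, scored 503 and was 543 bp wide. The remaining 5 scored from 114 to 154 and were 232 to 334 bp wide.

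Around the 5′ end of PRKD1 itself no peak was listed. The nearest was the peak at 30376136 to 30376624, 20.6 kb inside the gene, with a score of 687. On the upstream side the nearest was at 30434156 to 30434665, 37.4 kb away, with a score of 224 and a width of 510 bp. The distance between these midpoints was 58.0 kb. Longer steps between neighbours lay on both sides, for example 67.5 kb inside PRKD1 and 60.1 kb upstream. Since the depth is unknown, the stretch around the 5′ end cannot be called unbound. At the 3′ end the nearest peaks lay 13.0 kb inside (30058856 to 30059101, score 145) and 13.5 kb outside (30032304 to 30032639, score 279).

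Upstream of PRKD1, the 19 peaks included a proximal group and, farther out, a group of adjoining calls. The proximal group held 5 peaks between 37.4 and 93.0 kb from the 5′ end, scoring 224, 521, 252, 892 and 429 in order of distance. All 5 were above the median of the rest of the chromosome, 222, and their widths were 510, 358, 376, 603 and 490 bp. The peak at 30472322 to 30472924, 75.6 kb upstream, scored 892, the third highest of the window. Successive midpoints here were 6.63 to 17.3 kb apart, so the group was no run by the 12.5 kb step, and it became one when steps of up to 25 kb were allowed.

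The 3 adjoining calls lay 294 to 296 kb from the 5′ end. They measured 396 bp (30690897 to 30691292), 511 bp (30691394 to 30691904) and 882 bp (30692621 to 30693502), and scored 87.6, 212 and 488. The first pair was 101 bp apart. The third was the second widest peak of the window, a width reached by 0.738% of peaks in the rest of the chromosome. The peaks at 30720197 to 30720636 and 30753095 to 30753497 followed with scores of 274 and 465. The other 9 upstream peaks scored 103 to 236.

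The outer parts of the window held few peaks but 2 of its 5 highest scores. Beyond the 3′ end of PRKD1 the 8 scores, from the far side towards the gene, were 86.5, 821, 426, 91.5, 384, 128, 298 and 279. The peak with a score of 821 (29580581 to 29581072, 492 bp wide) lay 816 kb from the 5′ end. The longest step between neighbouring midpoints in the window, 159 kb, lay in this part. Beyond 31 Mb the 6 scores were 82.3, 103, 139, 973, 154 and 230. The peak with 973 (31248303 to 31248690) had the highest score of the window and was 388 bp wide. None of the 56 reached the score of the best peak elsewhere on chromosome 14 (32953332 to 32954395), 2670.

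The scores of the window did not stand above those of the rest of the chromosome. The median was 187 (interval 148 to 274) in the window and 222 (interval 211 to 242) in the rest of chromosome 14, and the first interval contains the other median. In PRKD1 the median was 157 (interval 134 to 355), upstream it was 212 (interval 131 to 429), beyond the 3′ end 289 (interval 86.5 to 821) and beyond 31 Mb 146 (interval 82.3 to 973). Of the 56 peaks, 25 scored above the median of the rest of the chromosome and 31 below it. Scores of at least 500 were found for 9 peaks, or 16.1% (Wilson interval 8.69% to 27.8%), against 19.2% in the rest of the chromosome. They comprised 5 in PRKD1, 2 upstream and 1 in each outer part. Scores under 100 were found for 7, or 12.5%, against 11.6%. Both shares were close to those of the chromosome.

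The peaks of PRKD1 and its upstream part were wide for their scores. Over the window the median width was 333.5 bp (interval 302 to 367 bp), against 303 bp (interval 294 to 311 bp) in the rest of chromosome 14. Widths above 303 bp were found for 35 of 56 peaks, or 62.5% (Wilson interval 49.4% to 74.0%), against 49.7%. A width of 500 bp or more was found for 7 peaks, or 12.5% (Wilson interval 6.19% to 23.6%), against 8.36%. Those 7 comprised 3 in PRKD1 and 4 upstream, and none in the outer parts. Without regard to score, the window's intervals for the median width and for both shares contain the values of the rest of the chromosome. Width rises with score across peaks (Spearman's rho 0.849 in the rest of chromosome 14 and 0.744 over the 56 peaks, as a description, since both come from the same pile of reads). Each width was therefore divided by the median width of the peaks of the rest of chromosome 14 in the same of 10 score classes.

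**Figure D4:**
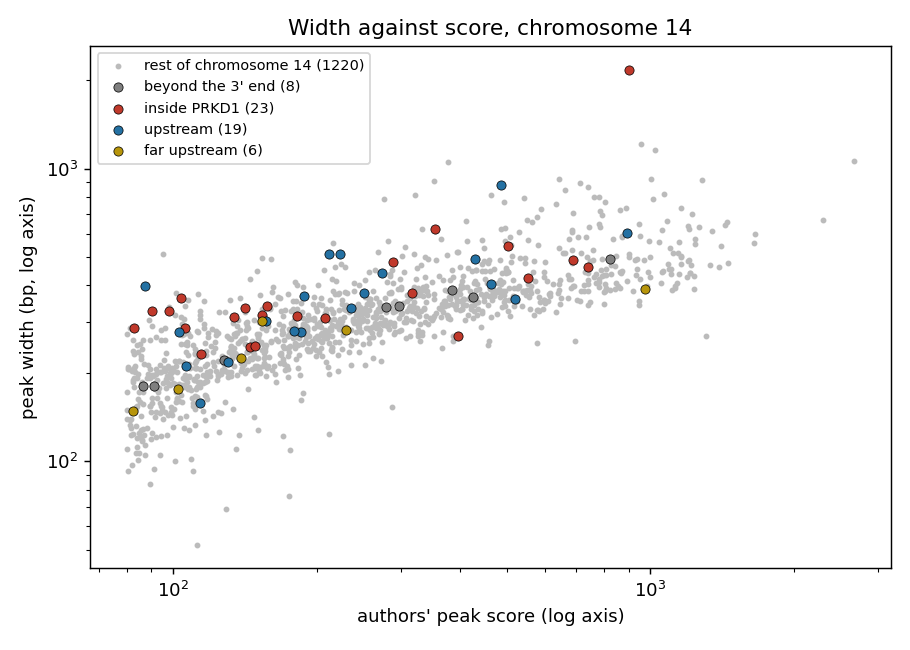
Width (bp) is plotted against the authors' score for the 1220 peaks of the rest of chromosome 14 (grey) and the 56 peaks of the window by part, on log axes. Peaks inside PRKD1 and upstream lie mostly in the upper part of the grey cloud, and the peak of 2177 bp stands above all others.

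On this scale the median of the window was 1.11 (interval 1.07 to 1.27), and 41 of 56 peaks, or 73.2% (Wilson interval 60.4% to 83.0%), were wider than peaks of like score, against 49.5% in the rest of the chromosome. Inside PRKD1 the median ratio was 1.35 (interval 1.11 to 1.48), and 20 of 23 peaks were wider than peaks of like score. Upstream it was 1.21 (interval 1.07 to 1.43), with 15 of 19 wider. Beyond the 3′ end it was 1.03 (interval 0.969 to 1.08), with 5 of 8 wider, and beyond 31 Mb 0.906 (interval 0.819 to 1.20), with 1 of 6 wider. The intervals of PRKD1 and of its upstream part lay above 1, and those of the outer parts included 1. With 8 and 6 peaks the intervals of the outer parts are the full range of their ratios. They therefore cannot show a difference between the parts. The window was chosen for the number of its peaks and not for width. However, peaks with close neighbours were also wider at like score in the rest of the chromosome, as given below. The width ratios are therefore not independent of that choice. The differences have no replicate error and were not tested.

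**Figure D5:**
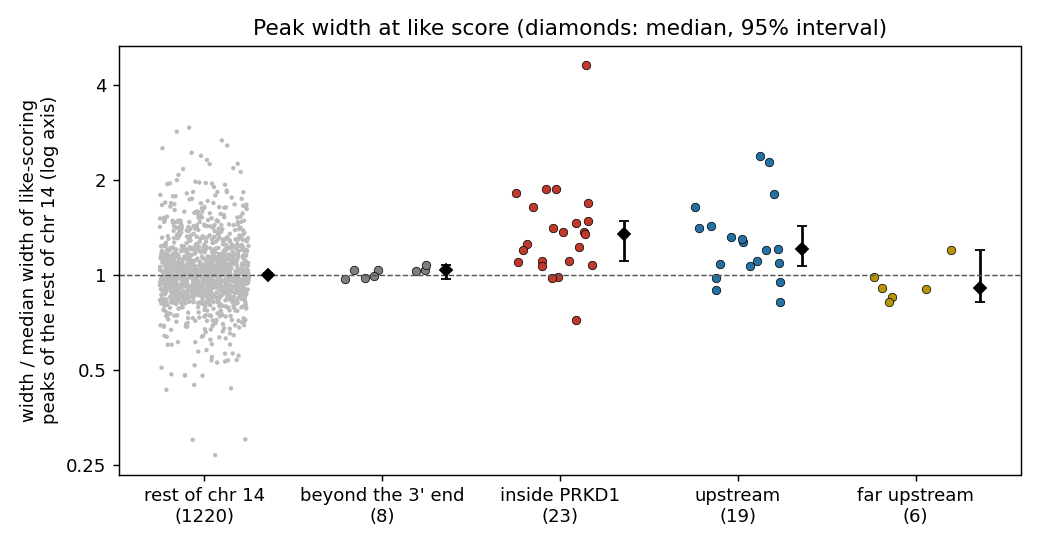
Each dot is the width of 1 peak divided by the median width of like-scoring peaks in the rest of chromosome 14 (log axis), by part of the window, with the median and its 95% interval beside each group. The medians of 1.35 inside PRKD1 and 1.21 upstream lie above the dashed line at 1, and those of the outer parts, 1.03 and 0.906, lie close to it.

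Ratios above 1 were found among low-scoring and high-scoring peaks of the window alike. The 30 peaks of the window that scored below the median of the whole list had a median ratio of 1.15 (interval 1.04 to 1.35). Their median width was 282 bp, against 225 bp for such peaks in the rest of the chromosome. For the 26 at or above that median the ratio was 1.10 (interval 1.03 to 1.36) and the median width 432 bp, against 374 bp. Of the 23 peaks in PRKD1, 14 scored below that median. For example, the peak at 30221585 to 30221911 scored 90.4 and was 327 bp wide, 1.87 times the width of like-scoring peaks. The peak at 30342559 to 30342920 scored 104 and was 362 bp wide, at 1.88 times. The highest ratio, 4.60, was that of the peak of 2177 bp. The lowest, 0.720, belonged to the highest-scoring peak of the run farthest from the start.

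Closeness moved with width in the rest of the chromosome too. A midpoint within 10 kb of another was found for 27 peaks of the window, or 48.2%, against 30.5% in the rest of chromosome 14. These numbered 18 of 23 in PRKD1 and 9 of 19 upstream, and none in the outer parts. In the rest of the chromosome the 372 peaks with such a neighbour had a median ratio of 1.09 (interval 1.05 to 1.12), and the 848 without one had 0.976 (interval 0.961 to 0.991). In the window the 27 with a neighbour had 1.36 (interval 1.11 to 1.69), and the 29 without had 1.04 (interval 0.976 to 1.20). The part that closeness had in the widths was not tested.

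Compared bin by bin over the 68 bins of 1 Mb on chromosome 14 with at least 10 peaks, the bin from 30 to 31 Mb had the highest median ratio, 1.24. Over the 65 bins outside the window the medians ran from 0.831 to 1.17 around 0.995, and the highest of them, from 62 to 63 Mb, held 11 peaks. The most peaks outside the window, 29, were held by the bin from 89 to 90 Mb, with a median ratio of 1.04, and by that from 19 to 20 Mb, where the list of this chromosome begins, which had the lowest ratio, 0.831. The bins from 29 to 30 Mb and from 31 to 32 Mb, which flank the densest bin, had 1.04 and 0.958. In the bin from 30 to 31 Mb, 61.4% of peaks had a neighbour within 10 kb, against 30.5% in the rest of the chromosome. The ranking was made for this placement of the bins only.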

How the data were processed

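The data were 1 list of GATA2 peaks for 2 replicate LNCaP ChIP-seq samples in 1 group. The submitters' processing notes name Bowtie and hg19, and the peak names in the deposited list name MACS as the caller. For their versions, a control library, duplicate handling and pooling of replicates, nothing is given in the sources used here. The peak score is the authors' value from the deposited list. Its scale is not stated, so it was used to rank and describe peaks. Scores in the list ran from 80.0 to 3100. Starts were made 1-based, and midpoints placed each peak. Intervals of medians are exact binomial ones taken from order statistics, shares have Wilson intervals and the density ratio has an exact binomial interval. The calculations were tested on simulated data. Python 3.11.15, numpy 2.4.6, pandas 2.3.3, scipy 1.17.1 and matplotlib 3.10.9 were used.

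The window, its parts and the alternatives were chosen with earlier results of these data known. Peaks named were the 5 highest-scoring, the best of each part, the 3 widest, those nearest each end of PRKD1, every run, the longest step and the best peak of the rest of chromosome 14. The peaks at the edges of the window, low-scoring examples, the upstream groups and the pair outside the runs were named after their values had been seen. Gene order and the promoter came from RefSeq tables of GRCh38, and a genome sequence of hg19 was not used here, so sequences under the peaks were not analysed.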

Additional observations from a re-analysis of the deposited data

How the results depend on the processing

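The density of the window relative to the rest of chromosome 14, 1.98, was 3.12 for the bin from 30 to 31 Mb alone. The 3 runs numbered 0 among the better-scoring 50% of the list and 0 among the best-scoring 10%. In each run fewer than 5 peaks scored at or above the median of the list, 212. The runs therefore depended on peaks that scored below that median. Close neighbours within 10 kb, whose share was 1.58 times that of the rest of the chromosome, gave a ratio of 0 for the best-scoring 10%, in which the window had 6 peaks. Of 35 alternative values, the other 31 kept their direction and stayed inside the interval of the reported value (for runs and bins, within 1.5 times). Among those 31, merging peaks under 500 bp apart left 2 runs, at the very edge of 1.5 times. The run nearest the start of PRKD1 was then lost. Steps of up to 25 kb gave 3 runs with 22 peaks, but these were not the same 3. The middle run and the run nearest the start were joined, and the proximal upstream group formed another. Some intervals among the 31 included a ratio of 1. Examples are the density for the best-scoring 10% (0.643 to 3.98) and close neighbours for the better-scoring 50% (0.953 to 2.89). The width ratio at like score stayed between 1.11 and 1.16 in its 5 alternatives. Leaving out the widest peak and shifting the bins were chosen after seeing the data. No replicate could be left out. No paired analysis was possible because both replicates share 1 peak list and 1 group. Read depth is unknown, which limits what a stretch without a peak can show.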
